A study of Mus musculus with 12 samples.

Results

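Hearts of mouse embryos at E10.5 that had lost Med30 in cardiomyocytes were compared with hearts of control littermates by RNA-seq. This experiment makes up 6 of the 12 samples of the series, 3 cKO and 3 Ctrl, chosen by their labelled stage, and the other 6 are adult cardiomyocytes that are not described here. Of the 20775 genes in the E10.5 table, the 10885 with a mean of the 6 samples above 1 RPKM (read number divided by gene length and by library size) were tested. The cKO embryos were Med30 f/f and carried Tnnt-Cre, in which the promoter of cardiac troponin T drives Cre, so that recombination removes exon 1 of Med30 in cardiomyocytes and the other cells of the heart keep the gene. By the paper's methods the Ctrl embryos were Cre-negative littermates that were Med30 f/f as well. The sample labels call them wild type, and the strain label of all samples is C57BL/6. The floxed line came from 1 embryonic stem cell clone, and since no control carried Cre alone, an effect of Cre cannot be told apart from the loss of Med30. Total RNA of hearts was depleted of ribosomal RNA before the libraries were made. The number of hearts in a sample, and whether replicates were separate litters, are not given in the sources used here, so p-values measure the spread between these samples. In the table the cKO columns carry the heading icKO, the name of the adult model, and their E10.5 origin was taken from the labels.

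Mediator is a complex of many subunits that carries signals from transcription factors bound at enhancers and promoters to RNA polymerase II. Med30 is a subunit found in metazoans. At E10.5 the mouse heart has begun to beat and to divide into chambers. Its ventricular wall consists of an inner network of trabeculae, which carry the early conduction pathway, and a thin outer compact layer in which cardiomyocytes divide, around a lining of endocardium and beneath an epicardium.

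The libraries held about 13700000 to 20000000 reads as estimated from the spacing of the low RPKM values, and cKO replicate 3 had the fewest. For a transcript of 2 kb, 3 reads were worth 0.0750 to 0.109 RPKM, a limit for counting error only. On the first principal component (39.3% of the variance) the groups lay apart, while on the second (25.5%) cKO replicate 3 stood apart from the other 5 samples. The labelled tissue showed its markers, since 14 of 14 cardiomyocyte markers were above the limit for testing, with Actc1 above 1846 RPKM in every sample, and the foregut markers Shh, Foxa2 and Nkx2-1 were listed at 0 in all 6 samples. Neural crest markers summed to 0.928 to 3.91 RPKM and foregut and liver markers to 1.42 to 5.42 RPKM over the 6 samples, with overlapping groups. The summed level of 4 Y-linked genes was 0.076 RPKM in Ctrl replicate 2 and between 30.4 and 39.2 RPKM in the other 5 samples. The summed level of the cardiomyocyte markers lay between 7412 and 9607 RPKM in Ctrl and between 5895 and 7228 RPKM in cKO hearts. Of these 14 markers, 1, Myh7, had an adjusted p under 0.05, and their median log2 fold change was −0.35. In bulk hearts, fewer cells of a type and less RNA per cell cannot be told apart. Erythroid markers summed to 331 to 1101 RPKM in Ctrl and 509 to 2980 RPKM in cKO hearts, which overlap. All 11 tested had a log2 fold change above 0 (median 0.82), as did 3418 of the 10885 genes tested. Of the 11 markers, 0 had an adjusted p, or an unadjusted p, under 0.05 in limma. The part of either marker list in the results was not tested.

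Across all genes tested, the median log2 fold change of cKO against Ctrl was −0.13 with RPKM as deposited, −0.01 after median-ratio scaling between samples and 0.04 after scaling without the 20 most abundant genes. Changes are therefore best read relative to that median, and 7467 of the 10885 genes had a log2 fold change below 0, against 5623 of 10874 and 4764 of 10894 with these scalings. With both an adjusted p below 0.05 and a change of more than 1 on the log2 scale, 59 genes (0.542% of those tested) were lower in cKO hearts and 26 (0.239%) were higher. In all 85 of these genes the groups did not overlap, a separation that 22.6% of all genes tested showed in the lower and 6.50% in the higher direction. With median-ratio scaling the calls were 41 lower (0.377%) and 35 higher (0.322%), and without the 20 most abundant genes in the scaling they were 36 (0.330%) and 48 (0.441%). The calls also depended on single libraries. There were 24 lower and 16 higher genes without Ctrl replicate 1, 52 and 16 without Ctrl replicate 2, 18 and 11 without Ctrl replicate 3, 35 and 14 without cKO replicate 1, 32 and 9 without cKO replicate 2, and 102 and 36 without cKO replicate 3. Of the 59 lower and 26 higher genes, 18 and 7 were still called without Ctrl replicate 3, where the fewest were. Of the 59 lower genes, 16 kept an adjusted p under 0.05 in all 6 of these fits, as did 7 of the 26 higher genes. At an adjusted p under 0.05 alone, 376 genes (3.45%) were lower and 94 (0.864%) were higher, against 283 (2.60%) and 267 (2.46%) with median-ratio scaling and 210 (1.93%) and 408 (3.75%) without the 20 most abundant genes in it. Members of the gene lists below are counted at this limit, "fell" and "rose" refer to it, and a value alone in parentheses after a gene is its log2 fold change. The shares of 3.45% and 0.864% are those to set beside each list count with the deposited RPKM. The medians of the lists of calcium handling, BMP and TGF-beta, FGF, IGF, Wnt and retinoid, CDK inhibitor, imprinted and polymerase II genes given below were under 0 with the deposited RPKM and above 0 under both other scalings, and those of the muscle energy, apoptosis, receptor and Mediator lists were above 0 without the 20 most abundant genes in the scaling. Most higher calls were of low level, with a Ctrl mean under 5 RPKM in 19 of 26, against 22 of 59 lower calls.

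Med30 itself (chr15:52712408-52730564, GRCm38) had 10.6, 13.3 and 11.3 RPKM in Ctrl and 1.38, 2.02 and 1.004 RPKM in cKO hearts. The groups lay apart, and the mean was lower by 87.5%. The remaining reads were counted over the whole gene, so they can include exons outside the deleted one and RNA of cells without Cre. The source of these reads was not tested.

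Among the largest falls were genes of cell contact and vessel signalling. Gja5 (chr3:96904693-97077416), which encodes the connexin 40 of trabecular and atrial gap junctions, had 29.0, 20.5 and 28.9 RPKM in replicates 1 to 3 of Ctrl and 5.34, 4.07 and 5.24 RPKM in those of cKO hearts. The highest cKO sample was well under the lowest Ctrl sample, and the log2 fold change was −2.39 ± 0.17 (SE, adjusted p = 0.000260). Gja1 (chr10:56377330-56402513), the gene of connexin 43, had 49.99, 36.01 and 48.6 RPKM in Ctrl and 13.2, 13.0 and 10.503 RPKM in cKO hearts, a log2 fold change of −1.86 ± 0.15 (SE, adjusted p = 0.000531). Angpt1 (chr15:42424723-42676977), whose product angiopoietin 1 is secreted by the myocardium and binds the receptor Tie2 on endocardial cells, had 19.997, 18.5 and 18.7 RPKM in replicates 1 to 3 of Ctrl and 5.12, 4.64 and 2.84 RPKM in those of cKO hearts. The Ctrl samples lay close together and the cKO samples were lower throughout, with a log2 fold change of −2.20 ± 0.20 (SE, adjusted p = 0.000956). All of these calls held in each of the 6 fits without 1 replicate.

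Ddc (chr11:11814101-11898144) encodes aromatic L-amino acid decarboxylase, an enzyme of monoamine synthesis, and is an imprinted gene in the embryonic heart. It had 8.09, 8.59 and 10.9 RPKM in replicates 1 to 3 of Ctrl and 1.81, 1.78 and 1.79 RPKM in those of cKO hearts, so that the cKO samples were nearly identical and the groups far apart. Its log2 fold change was −2.28 ± 0.15 (SE, adjusted p = 0.000260) and held in all 6 fits without 1 replicate. Art1, an ADP-ribosyltransferase on the surface of muscle cells, had 3.87, 2.22 and 3.76 RPKM in Ctrl and 1.005, 0.480 and 0.616 RPKM in cKO hearts. Its groups did not overlap, and the log2 fold change was −2.09 ± 0.32 (SE, adjusted p = 0.0177), with the adjusted p at or above 0.05 without Ctrl replicate 1 or Ctrl replicate 3.

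Several of the 12 largest falls were in genes better known from other tissues. Ppp1r1b, which encodes the phosphatase inhibitor DARPP-32 of striatal neurons, had 2.82, 3.09 and 3.23 RPKM in Ctrl and 0.764, 0.211 and 0.921 RPKM in cKO hearts. Gsg1l, whose product associates with AMPA-type glutamate receptors, had 2.40, 2.12 and 2.55 RPKM in Ctrl and 0.787, 0.241 and 0.290 RPKM in cKO hearts. In both genes the cKO samples lay well below all Ctrl samples, with log2 fold changes of −2.27 and −2.32. Ccdc63, a coiled-coil gene known from sperm flagella, had 2.90, 3.53 and 3.75 RPKM in Ctrl and 1.25, 1.05 and 0.461 RPKM in cKO hearts (log2 fold change −1.86, adjusted p = 0.0229). Egr1, an immediate early transcription factor, had 7.49, 3.18 and 10.4 RPKM in Ctrl and 2.14, 1.80 and 1.34 RPKM in cKO hearts. Its Ctrl samples spread the most, Ctrl replicate 2 lying nearest to the cKO samples, and its log2 fold change was −1.80 ± 0.37 (SE, adjusted p = 0.0315). The calls of Ppp1r1b, Ccdc63 and Egr1 were each lost in 4 of the 6 fits without 1 replicate and that of Gsg1l in 3, where the adjusted p reached 0.102, 0.102, 0.110 and 0.102.

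**Figure D1:**
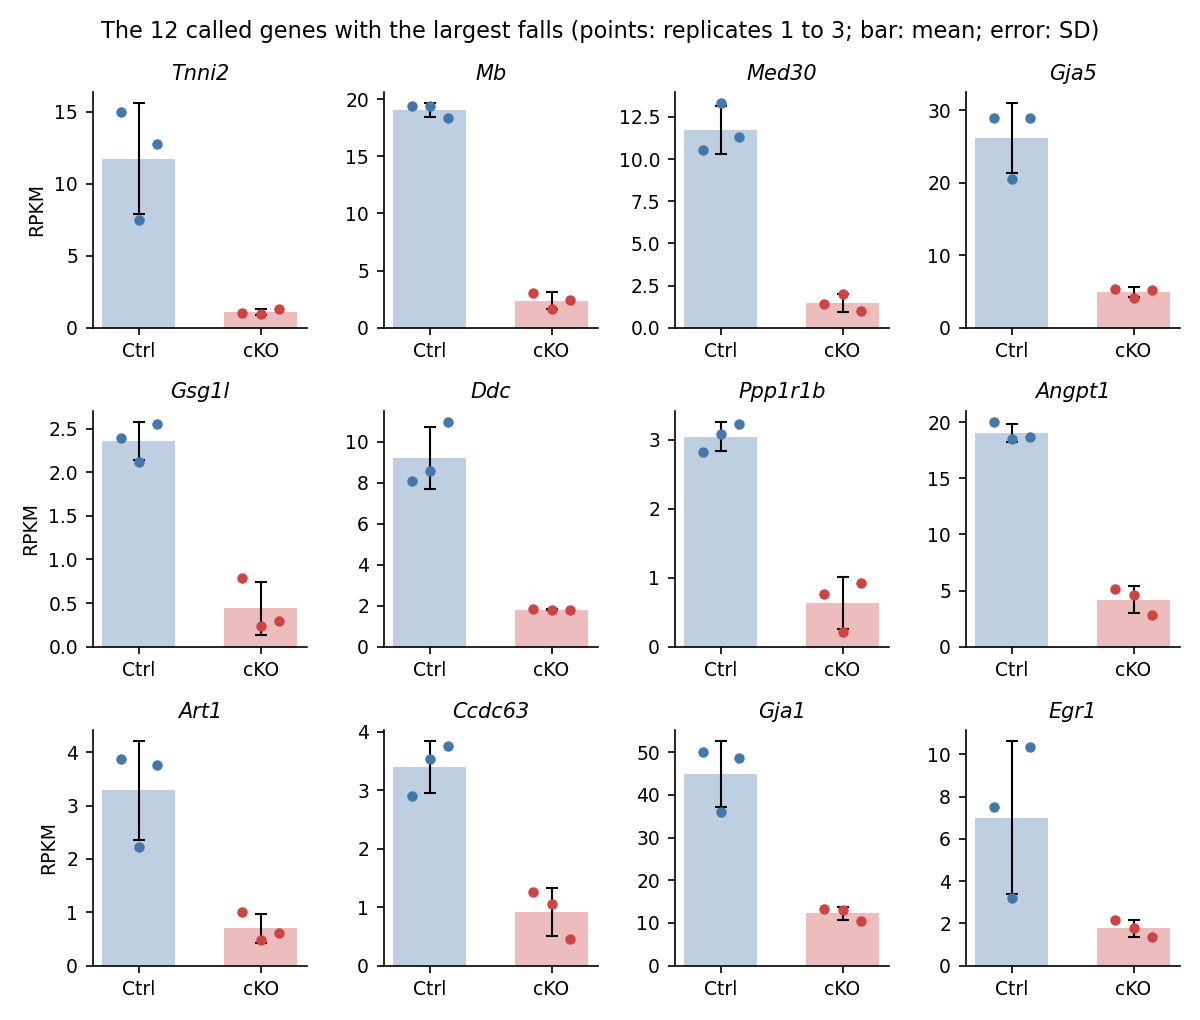
RPKM of the 12 called genes with the largest falls, 1 panel a gene, with replicates 1 to 3 as points from left to right, the mean as a bar and the SD as an error line. In each panel the 3 cKO points lie below the 3 Ctrl points, and the Ctrl points of Egr1 spread from 3.18 to 10.4 RPKM.

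Among the largest rises was Cdkn1a (chr17:29090976-29100727), which encodes the cell cycle inhibitor p21, with 4.34, 3.54 and 4.46 RPKM in replicates 1 to 3 of Ctrl and 27.1, 40.5 and 13.0 RPKM in those of cKO hearts. Every cKO sample was above every Ctrl sample, but the cKO samples differed among themselves, replicate 2 being highest and replicate 3 lowest. The log2 fold change was 2.54 ± 0.33 (SE, adjusted p = 0.00942). Eda2r, a receptor of the TNF family, had 0.671, 1.35 and 0.912 RPKM in Ctrl and 4.47, 7.69 and 2.29 RPKM in cKO hearts and the same order of the cKO samples. Its log2 fold change was 2.08 ± 0.40 (SE, adjusted p = 0.0275), and its call was lost without Ctrl replicate 1, Ctrl replicate 3, cKO replicate 1 or cKO replicate 2.

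Npas4 (chr19:4984355-4990316), an activity-dependent transcription factor studied in neurons, had 1.05, 1.82 and 1.19 RPKM in replicates 1 to 3 of Ctrl and 4.41, 5.32 and 4.43 RPKM in those of cKO hearts. The cKO samples lay together above all Ctrl samples, and the mean was 3.49 times that of Ctrl, with a log2 fold change of 1.76 ± 0.22 (SE, adjusted p = 0.00769). Cox6b2, a testis form of a cytochrome oxidase subunit, had 1.95, 2.32 and 1.75 RPKM in Ctrl and 5.68, 5.04 and 5.36 RPKM in cKO hearts. Its cKO samples lay together above all Ctrl samples, a log2 fold change of 1.38 ± 0.16 (SE, adjusted p = 0.00454). The calls of Npas4 and Cox6b2 held in all 6 fits without 1 replicate.

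Genes of matrix, adhesion and cytoskeleton made up several of the other large rises. Col8a1, a short-chain collagen of vessel walls and valves, had 0.855, 1.05 and 0.882 RPKM in Ctrl and 3.03, 4.69 and 2.82 RPKM in cKO hearts (log2 fold change 1.78). Lims2, which encodes the focal adhesion adaptor PINCH2, had 0.474, 0.523 and 0.699 RPKM in Ctrl and 2.13, 2.09 and 1.86 RPKM in cKO hearts (log2 fold change 1.69). Lmod1, an actin nucleator of smooth muscle, had 2.42, 2.45 and 1.68 RPKM in Ctrl and 4.21, 6.14 and 8.47 RPKM in cKO hearts (log2 fold change 1.45). None of these groups overlapped. Nptx2, a pentraxin secreted at synapses, had 0.839, 0.541 and 0.849 RPKM in Ctrl and 1.67, 4.55 and 3.96 RPKM in cKO hearts, with cKO replicate 1 below the other cKO samples. Krt20, an intermediate filament of gut epithelium, had 1.36, 1.97 and 1.24 RPKM in Ctrl and 3.13, 5.30 and 6.35 RPKM in cKO hearts (log2 fold change 1.60). Igsf9b, an adhesion molecule of synapses, had 0.647, 0.994 and 0.789 RPKM in Ctrl and 2.54, 2.85 and 2.04 RPKM in cKO hearts (log2 fold change 1.51). All were low in Ctrl hearts, and the calls of Lims2, Nptx2 and Igsf9b were lost in 4 of the 6 fits, those of Lmod1 and Krt20 in 3 and that of Col8a1 without Ctrl replicate 3. Arap2, a GTPase-activating protein for Arf GTPases, had 1.43, 1.07 and 1.08 RPKM in Ctrl and 3.62, 4.09 and 2.51 RPKM in cKO hearts, and Fam212b, an inhibitor of the kinase Pak4, had 1.123, 1.17 and 1.19 RPKM in Ctrl and 3.38, 3.70 and 2.78 RPKM in cKO hearts. Their log2 fold changes were 1.42 and 1.42, and each call was lost in 3 of the 6 fits.

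**Figure D2:**
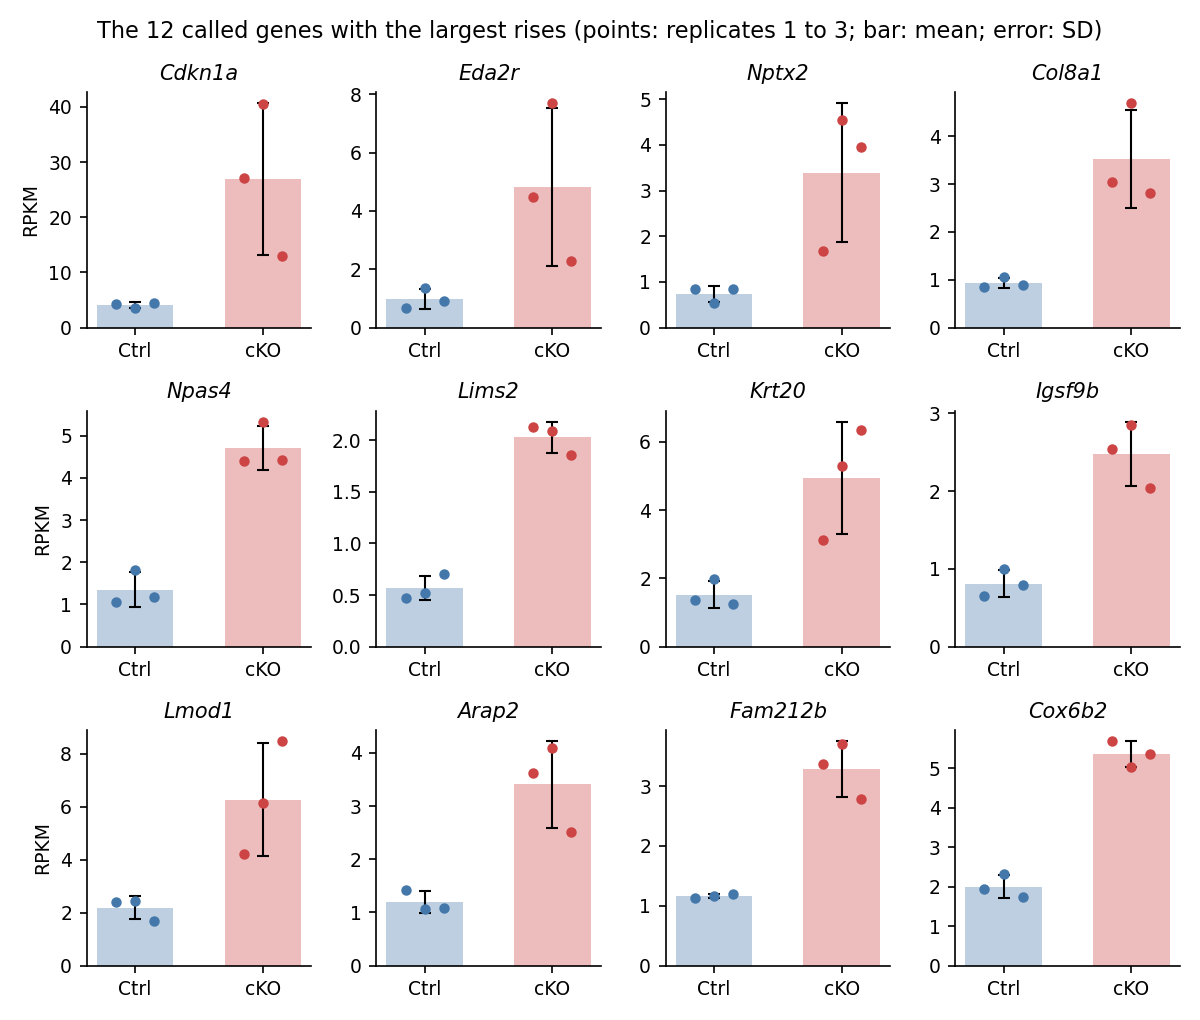
RPKM of the 12 called genes with the largest rises, drawn as replicates 1 to 3 (points from left to right), mean (bar) and SD (error line). The 3 cKO points lie above the 3 Ctrl points in each panel, and cKO replicate 3 is the lowest cKO sample for Cdkn1a (13.0 RPKM) and Eda2r (2.29 RPKM).

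Contractile genes were found among those that fell and those that rose. Of 41 genes of the thin filament and Z disc, 8 fell and 4 rose, with a median log2 fold change of −0.19 against −0.13 for all genes, and 8 fell and 6 rose under median-ratio scaling. Those that fell were Tnni2 and Tnnt3, the fast skeletal troponins I and T, Tcap (−0.83), Csrp3 (−0.74) and Myoz1 (−0.64) of the Z disc, Fhl2 (−0.68), Cap2 (−0.62) and Klhl41 (−0.75). Those that rose were Acta1, the skeletal alpha-actin, Pdlim7, a Z disc adaptor, Tpm2 (0.88), which encodes beta-tropomyosin, and Flnc (0.55), which encodes filamin C. Without cKO replicate 3 there were 10 lower members, and without Ctrl replicate 1, Ctrl replicate 3, cKO replicate 1 or cKO replicate 2 there was 1. The number that rose was between 1 and 3 in these fits, the fewest without Ctrl replicate 1, Ctrl replicate 3 or cKO replicate 2. The most abundant members did not pass the test: Actc1 had a log2 fold change of −0.49 (adjusted p = 0.301), Tnnt2 −0.45, Tpm1 −0.12 and Tnnc1 0.02.

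Acta1 (chr8:123891769-123894751) was the most abundant of the genes called higher. It had 112, 118 and 113 RPKM in replicates 1 to 3 of Ctrl and 262, 342 and 260.4 RPKM in those of cKO hearts. The Ctrl samples lay close together and every cKO sample lay far above them, with a log2 fold change of 1.32 ± 0.15 (SE, adjusted p = 0.00409). Pdlim7 had 28.2, 23.8 and 31.5 RPKM in Ctrl and 56.4, 67.9 and 46.5 RPKM in cKO hearts, a log2 fold change of 1.02. Tnnt3 had 4.36, 2.48 and 3.87 RPKM in Ctrl and 0.931, 0.982 and 1.96 RPKM in cKO hearts, a log2 fold change of −1.44, and the groups of both genes did not overlap. Skeletal muscle markers summed to 113 to 120 RPKM in Ctrl and 262 to 344 RPKM in cKO hearts, nearly all of it Acta1, and of the 7 markers Myod1, Myf5 and Pax7 were at 0 in all 6 samples. Actn3 had 0.745, 1.683 and 0.646 RPKM in Ctrl and 0.812, 1.734 and 1.137 RPKM in cKO hearts. Myog had 0.101, 0.17 and 0.167 RPKM in Ctrl and 0 in each cKO sample, and Myh3 was at 0.031 RPKM or less. Reads of Acta1 can be split with the near-identical coding sequences of Actc1 and Acta2 in a way that the sources used here do not describe.

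Of 21 genes of the thick filament and titin, 3 fell and 0 rose (median −0.23). Myh7, the slow beta-myosin heavy chain, had 609, 410.0 and 589 RPKM in Ctrl and 179, 161 and 242 RPKM in cKO hearts. Myh7b, a related myosin, had 5.16, 7.01 and 7.497 RPKM in Ctrl and 2.44, 2.15 and 2.90 RPKM in cKO hearts, and Mybphl, a myosin binding protein of atria, had a log2 fold change of −0.91 ± 0.17 (SE, adjusted p = 0.0270). The groups of all of these genes did not overlap. Myl2, the ventricular myosin light chain and on average the second most abundant gene of the table after Actc1, had 4132, 2317 and 2867 RPKM in Ctrl and 1319, 1392 and 1597 RPKM in cKO hearts. Its groups did not overlap, but Ctrl replicate 1 stood well above the others and the log2 fold change of −1.08 did not pass the test (adjusted p = 0.0734). Under median-ratio scaling it was −0.96 (adjusted p = 0.0339). The atrial light chains Myl4 and Myl7 had log2 fold changes of −0.14 and −0.51, and neither passed the test. The list count was 0 without Ctrl replicate 3, 1 without either cKO replicate 1 or cKO replicate 2 and 4 without cKO replicate 3.

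In genes of excitation and conduction, falls stood in a few members. Of 23 potassium, sodium and pacemaker channel genes, 4 fell and 0 rose (median −0.27). Kcne1, the accessory subunit of the slow delayed rectifier, had 3.76, 2.25 and 3.07 RPKM in Ctrl and 1.46, 0.896 and 1.06 RPKM in cKO hearts, a log2 fold change of −1.33 (adjusted p = 0.0280). Hcn4, the pacemaker channel, had 7.61, 7.40 and 7.52 RPKM in Ctrl and 4.85, 3.99 and 2.71 RPKM in cKO hearts. Its Ctrl samples were nearly identical, and the log2 fold change was −0.98 (adjusted p = 0.0280). Popdc3, a cAMP-binding membrane protein, had a log2 fold change of −0.99. Rangrf, which binds the small GTPase Ran and is not on the list, was called lower too (−1.03). Rangrf did not pass in 5 of the 6 fits without 1 replicate, nor with median-ratio scaling (adjusted p = 0.0520 in limma). The abundant pump subunit gene Atp1b1 (−0.09) did not pass the test. With median-ratio scaling 2 channel genes fell, and there were 0 without Ctrl replicate 1, Ctrl replicate 3 or cKO replicate 2.

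Of 31 calcium handling genes, 2 fell and 1 rose (median −0.10). Pln (chr10:53337667-53345987), which encodes the SERCA inhibitor phospholamban, had 110.3, 73.9 and 100.01 RPKM in Ctrl and 33.9, 29.6 and 28.1 RPKM in cKO hearts, with a log2 fold change of −1.61 ± 0.16 (SE, adjusted p = 0.00173). Rrad, a small GTPase that restrains calcium channels, had 40.6, 28.0 and 33.7 RPKM in Ctrl and 17.2, 17.2 and 20.1 RPKM in cKO hearts (−0.89, adjusted p = 0.0207). Itpr1, an intracellular calcium release channel, rose (0.52), and Gem, a GTPase of the same family as Rrad that is not on the list, was called higher with 2.69, 2.06 and 2.41 RPKM in Ctrl and 3.58, 5.47 and 6.27 RPKM in cKO hearts. Atp2a2, the SERCA pump itself, had 269, 227 and 236 RPKM in Ctrl and 163, 156 and 178 RPKM in cKO hearts. Its groups did not overlap, but its log2 fold change of −0.56 did not pass the test with the deposited RPKM (adjusted p = 0.0553) and passed it with median-ratio scaling (−0.44, adjusted p = 0.0290). The rise of Itpr1 did not pass in any of the 6 fits without 1 replicate, and Rrad passed in 3 of them. Gem did not pass in 4 of these 6 fits, where its adjusted p in limma reached 0.109. Under each of the other scalings 3 calcium handling genes fell and 4 rose. Of 23 genes of gap junctions and intercalated discs, the 2 connexins fell and Vcl, which encodes vinculin, rose (0.49). The list as a whole had a median of 0.01, and its abundant members Ctnnb1 (−0.05), Des (0.01) and Dsp (0.17) did not pass the test. The fall of both connexins held in each fit without 1 replicate, and the rise of Vcl in 0 of the 6. With the scaling by median ratio 4 members of that list rose, and 6 when the 20 most abundant genes were left out of it.

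Genes that mark regions of the heart were among those that fell. Of 18 trabecular and conduction-type genes 4 fell and 0 rose (median −0.35), of 14 compact wall genes 4 fell and 0 rose (−0.42), and of 19 atrial, sinus and outflow genes 4 fell and 0 rose (−0.51). Without 1 library the trabecular count was 2 to 6 and the compact wall count 2 to 4, each at 2 without Ctrl replicate 3, cKO replicate 1 or cKO replicate 2, and the trabecular count also without Ctrl replicate 1. Cited1 (chrX:102247381-102252181), a transcriptional coregulator of trabecular cardiomyocytes, had 119.8, 89.7 and 113 RPKM in replicates 1 to 3 of Ctrl and 43.6, 33.7 and 38.4 RPKM in those of cKO hearts. All cKO samples were well below the lowest Ctrl sample, with a log2 fold change of −1.48 ± 0.15 (SE, adjusted p = 0.00188). Nppa (−0.45, adjusted p = 0.165) and Nppb (−0.10), the natriuretic peptide genes of the same layer, did not pass the test. Bmp10, a trabecular growth factor, had 30.3, 21.1 and 26.4 RPKM in Ctrl and 34.8, 39.4 and 35.1 RPKM in cKO hearts, the cKO samples lying above all Ctrl samples. Its log2 fold change was 0.50 (adjusted p = 0.0722), and with median-ratio scaling it rose (0.62, adjusted p = 0.0214).

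Sequence upstream of the start is shown for 3 called genes of cardiomyocytes that hold a short muscle or core promoter motif, Pln and Cited1 among those lower and Acta1 among those higher, chosen after their values were seen. It was taken from RefSeq (GRCm38.p6), as the 250 bases before the annotated start on the gene's strand, and read for the core promoter run TATAAA on both strands. A run known as a site of GATA factors, AGATAA, and the CArG box bound by SRF and the MEF2 site were searched likewise. The sequences lie at chr10:53337436-53337685 (plus strand, Pln), chrX:102252182-102252431 (minus strand, Cited1) and chr8:123894776-123895025 (minus strand, Acta1), and capitals mark the matches, TATAAA and AGATAA (on the other strand) in Pln and a CArG box followed by TATAAA in Cited1 and Acta1.
Pln: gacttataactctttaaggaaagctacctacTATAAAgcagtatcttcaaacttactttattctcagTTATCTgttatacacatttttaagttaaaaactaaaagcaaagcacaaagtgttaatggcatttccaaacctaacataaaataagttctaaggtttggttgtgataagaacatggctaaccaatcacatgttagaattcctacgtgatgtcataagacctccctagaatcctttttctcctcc
Cited1: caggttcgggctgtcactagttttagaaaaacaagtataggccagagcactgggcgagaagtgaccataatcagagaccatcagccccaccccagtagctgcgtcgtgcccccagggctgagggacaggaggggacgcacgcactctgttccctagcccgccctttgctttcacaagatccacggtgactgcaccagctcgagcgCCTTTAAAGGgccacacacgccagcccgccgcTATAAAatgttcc
Acta1: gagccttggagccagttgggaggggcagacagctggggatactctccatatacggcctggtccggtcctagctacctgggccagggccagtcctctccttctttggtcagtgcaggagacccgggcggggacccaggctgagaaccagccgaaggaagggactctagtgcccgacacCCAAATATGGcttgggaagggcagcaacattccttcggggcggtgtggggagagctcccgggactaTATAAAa

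A promoter was matched for 8599 of the genes tested, 40 of the 59 lower and 19 of the 26 higher genes. TATAAA stood in 5.79% of the 8599 promoters, in 4 of the 40 (Ddc, Art1, Pln and Cited1) and in 5 of the 19 (Ckb, Polr2a, Acta1, Krt20 and Eda2r). AGATAA stood in 5.52% of all, in 5 of the 40 (Gja1, Pln, Tomm20l, Myh7b and Adprhl1) and in 1 of the 19 (Krt20). The CArG box stood in 1.26% of all, in Cited1 and Hopx among the lower and in Acta1 among the higher genes, and the MEF2 site in 1.57%, in 0 of the 40 and in Ckb of the 19. A match is a run of letters in this window, and binding was not measured.

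The compact wall list was not limited to genes of that layer. Of its members, Irx4 (chr13:73260479-73269608), a ventricular homeobox gene, had 16.04, 18.2 and 18.6 RPKM in replicates 1 to 3 of Ctrl and 6.54, 6.33 and 8.12 RPKM in those of cKO hearts. The groups were far apart, and the log2 fold change of −1.32 ± 0.13 (SE, adjusted p = 0.00173) held in all 6 fits without 1 replicate. Hey2 (−1.32) and Mycn (−1.24) were also called lower, and Prdm16, a chromatin regulator of compact myocardium, had 2.72, 2.04 and 2.62 RPKM in Ctrl and 1.33, 1.24 and 1.16 RPKM in cKO hearts (log2 fold change −0.92, adjusted p = 0.0435). Tbx18, a T-box gene of the sinus horn and epicardium, had 10.6, 11.1 and 9.27 RPKM in Ctrl and 4.44, 7.47 and 4.42 RPKM in cKO hearts, and Dkk3, a secreted member of the dickkopf family, had 16.7, 14.7 and 14.3 RPKM in Ctrl and 8.72, 9.73 and 8.24 RPKM in cKO hearts. Their log2 fold changes were −0.95 and −0.77, and the groups overlapped in neither gene. Besides Angpt1 and Hcn4, these made up the 4 genes of the atrial, sinus and outflow list. That list had 2 members lower under median-ratio scaling and 8 without cKO replicate 3. Without any other library the count was 1 to 3, the fewest without Ctrl replicate 3.

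Of 47 cardiac transcription factors, 6 fell and 0 rose (median −0.23, −0.11 with median-ratio scaling). Hopx, a homeodomain protein that does not bind DNA by itself, had 61.1, 45.6 and 59.8 RPKM in replicates 1 to 3 of Ctrl and 24.3, 26.4 and 28.8 RPKM in those of cKO hearts. Its groups did not overlap, with a log2 fold change of −1.05 ± 0.14 (SE, adjusted p = 0.00974), and the adjusted p was at or above 0.05 without Ctrl replicate 3. Among the 6 fits without 1 replicate, the log2 fold change of Hopx reached −0.978, short of the limit for a call. Myocd, which encodes the SRF coactivator myocardin, had 27.4, 24.7 and 27.7 RPKM in Ctrl and 16.5, 17.6 and 19.8 RPKM in cKO hearts (log2 fold change −0.57, adjusted p = 0.0291). Esrrg, a nuclear receptor of oxidative metabolism, had a log2 fold change of −0.70, and the remaining members that fell, Irx4, Hey2 and Prdm16, are given above. The core factors Gata4 (−0.255, adjusted p = 0.315), Tbx20 (−0.42) and Tead1 (−0.05) and SRF itself (Srf, 0.13) did not pass the test. Leaving out cKO replicate 3 gave 9 lower members and leaving out Ctrl replicate 3 gave 2.

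Few genes of the signalling lists passed the test. Nrg1, the neuregulin that endocardial cells send to the myocardium, had 4.27, 3.98 and 3.86 RPKM in replicates 1 to 3 of Ctrl and 7.42, 6.55 and 6.88 RPKM in those of cKO hearts. The groups did not overlap and the log2 fold change was 0.77 ± 0.12 (SE, adjusted p = 0.0204 in limma). Nrg1 did not pass without Ctrl replicate 3, cKO replicate 1 or cKO replicate 2. Erbb2, a gene of the ErbB receptor family, had −0.40 (adjusted p = 0.0607 in limma). Hey2 was the other member of 24 Notch, neuregulin and endothelin genes that passed. The number of these that rose was 3 with median-ratio scaling and 6 without the 20 most abundant genes in it. Of 33 BMP and TGF-beta genes 1 fell, where 3.45% of all genes tested did, and 0 rose, against 3 that rose under each of the other scalings. The gene that fell was Id2 (−0.60), a target of BMP signals. It passed without cKO replicate 3 and in none of the other fits without 1 replicate. Of 43 FGF, IGF, Wnt and retinoid genes 4 fell and 0 rose: Igfbp5, an IGF binding protein, with 167, 142 and 129.8 RPKM in Ctrl and 59.1, 47.0 and 95.1 RPKM in cKO hearts, Fgf13 (−0.74), Wnt5a (−0.57) and Dkk3. Igfbp5 passed without cKO replicate 3 and in none of the other 5 fits, and the list count was 0 to 2 without any library other than cKO replicate 3, the fewest without Ctrl replicate 3 or cKO replicate 1. The growth factor Igf2, among the most abundant transcripts at 550 to 766 RPKM in Ctrl and 541 to 588 RPKM in cKO hearts, did not pass (−0.21, adjusted p = 0.547). Of 26 receptor and adrenergic genes, Adra1b, an alpha-1 adrenergic receptor, was lower with 2.26, 1.49 and 1.89 RPKM in Ctrl and 0.850, 0.635 and 0.746 RPKM in cKO hearts. It passed without cKO replicate 3 and in none of the other 5 fits, and while 0 members of that list rose with the deposited RPKM, 4 did under median-ratio scaling and 5 without the 20 most abundant genes in it. Of 18 imprinted growth genes, 0 passed in limma with the deposited RPKM (3 lower and 1 higher had an unadjusted p under 0.05) and 2 fell under median-ratio scaling, Mest (−0.58, adjusted p = 0.0352) and Grb10 (−0.48, adjusted p = 0.0307).

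Targets of p53, the transcription factor that responds to DNA damage and other stress, had a median log2 fold change of 0.39, above the −0.13 of all genes. Above 0 were 28 of the 36 tested, against 3418 of all 10885 genes, while 0 fell and 9 rose. Besides Cdkn1a and Eda2r these were Zmat3, an RNA-binding protein, with 4.12, 3.98 and 4.10 RPKM in Ctrl and 8.04, 10.2 and 6.65 RPKM in cKO hearts (0.99), Polk, a DNA polymerase that copies past lesions, with 2.85, 2.20 and 2.30 RPKM in Ctrl and 6.73, 7.88 and 4.18 RPKM in cKO hearts (1.28), and Slc19a2, a thiamine transporter, with 2.06, 1.83 and 1.09 RPKM in Ctrl and 3.82, 4.53 and 3.15 RPKM in cKO hearts (1.19). In each of these the groups did not overlap. Mdm2, the ubiquitin ligase that degrades p53, had 12.4, 12.1 and 12.2 RPKM in Ctrl and 19.5, 22.1 and 16.7 RPKM in cKO hearts, with nearly identical Ctrl samples and a log2 fold change of 0.66 ± 0.12 (SE, adjusted p = 0.0265). Ccng1 (0.77), Phlda3 (0.74) and Aen (0.81) were the remaining genes that rose, and the abundant member Rps27l had −0.16. Over these 9 genes cKO replicate 3 was the lowest of the cKO samples in all but Aen. The number that rose was 12 with median-ratio scaling, 13 without cKO replicate 3 and between 1 and 3 when any other library was left out. The targets and the CDK inhibitor list share Cdkn1a and Ccng1. Of 19 genes on that second list 3 rose, the remaining gene being Gadd45b (0.83), and the abundant Cdkn1c did not pass (−0.37, adjusted p = 0.203). Of 33 apoptosis genes 2 rose, Eda2r and Tnfrsf12a (0.72), and 1 fell, Bnip3 (−0.91). Gadd45b and Tnfrsf12a passed in 0 of the 6 fits without 1 replicate and Bnip3 only without cKO replicate 3. The count of higher CDK inhibitor genes was 1 without any library other than cKO replicate 3.

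Of 63 genes of the cell cycle and DNA replication, 12 fell and 0 rose, and the median was −0.33. A log2 fold change below 0 was found in 59 of them, against 7467 of all 10885 genes tested. After Mycn, the largest fall was in Cdc45, a part of the replicative helicase, with 10.7, 10.6 and 9.62 RPKM in Ctrl and 5.43, 5.67 and 6.83 RPKM in cKO hearts (−0.78, adjusted p = 0.0204). Cenpa (−0.63), the centromeric histone, Mcm6 (−0.56) and Mcm7 (−0.54) of the helicase, Tk1 (−0.56), Ccnb1 (−0.54), Ccnb2 (−0.48), Bub1b (−0.53), Nusap1 (−0.50), Ccne1 (−0.49) and Cdt1 (−0.49) also fell. Cks2, a partner of cyclin-dependent kinases that is not on the list, was called lower with 12.46, 11.2 and 9.76 RPKM in Ctrl and 6.99, 4.01 and 4.62 RPKM in cKO hearts. With median-ratio scaling 7 list members fell and 52 were below 0, against 283 and 5623 of all 10874 genes. The count was 12 without cKO replicate 3, 4 without Ctrl replicate 2, 2 without Ctrl replicate 1 and 0 without any of the remaining libraries.

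Of 54 replication-dependent histone genes 8 fell and 0 rose, with a median of −0.39 (−0.27 with median-ratio scaling). Their transcripts were short (median 555 bases). Hist1h2bn had 113, 92.7 and 67.2 RPKM in Ctrl and 45.7, 44.2 and 40.4 RPKM in cKO hearts and Hist1h2an had 17.3, 23.1 and 12.2 RPKM in Ctrl and 7.39, 9.77 and 6.67 RPKM in cKO hearts, neither with overlapping groups. Hist1h3e (−0.85), Hist2h2ac (−0.91), Hist2h2ab (−0.83), Hist1h2bk (−0.81), Hist3h2a (−0.77) and Hist2h3b (−0.57) fell as well. The most abundant members, Hist1h1c (−0.32), Hist1h1d (−0.41) and Hist1h4d (−0.55), did not pass the test. Copies of a histone gene are near-identical, so reads may be shared between them and the values of single genes are uncertain. Leaving out cKO replicate 3 gave 17 lower histone genes, and leaving out any other library gave 1 to 4.

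Metabolic genes that fell included those of glucose uptake and glycolysis. Slc2a1 (chr4:119108711-119137983), the glucose transporter GLUT1, had 98.7, 139.5 and 113 RPKM in replicates 1 to 3 of Ctrl and 43.0, 35.5 and 57.7 RPKM in those of cKO hearts. Every cKO sample was well below every Ctrl sample, a log2 fold change of −1.38 ± 0.19 (SE, adjusted p = 0.0112), and the adjusted p was at or above 0.05 without Ctrl replicate 3. Pgk1, a glycolytic kinase, had 88.5, 92.4 and 88.1 RPKM in Ctrl and 57.4, 50.7 and 59.4 RPKM in cKO hearts (−0.68, adjusted p = 0.0217). Pdk1, which holds pyruvate back from the mitochondrion, had 26.3, 34.4 and 28.0 RPKM in Ctrl and 18.0, 13.4 and 19.1 RPKM in cKO hearts (−0.82), and Gyg, the primer of glycogen synthesis, had 378, 326 and 334 RPKM in Ctrl and 185, 206 and 199.5 RPKM in cKO hearts (−0.81). The groups of these genes did not overlap. They were the 4 of 35 genes of glucose transport and glycolysis that fell, 0 rose and the median was −0.33. Below 0 were 32 of the 35, against 7467 of all 10885 genes tested. Under median-ratio scaling 4 fell and 0 rose. Ldha (−0.56, adjusted p = 0.0874), Aldoa (−0.41) and Gapdh (−0.41), the abundant members, did not pass the test. Gapdhs, the sperm form of Gapdh, was called lower with 1.24, 2.17 and 1.75 RPKM in Ctrl and 0.589, 0.703 and 0.401 RPKM in cKO hearts. Gapdhs did not pass in 4 of the 6 fits without 1 replicate, nor with median-ratio scaling (adjusted p = 0.0624 in limma).

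Genes that respond to low oxygen overlapped with that list. Of 28 tested, 6 fell and 1 rose (median −0.29): Slc2a1, Pgk1 and Pdk1 again, Bnip3, a mitochondrial receptor for autophagy with 15.4, 22.2 and 15.8 RPKM in Ctrl and 9.05, 7.33 and 12.2 RPKM in cKO hearts, Hif1a (−0.54), the oxygen-regulated transcription factor, and Mxi1 (−0.67). Plod2, a collagen lysyl hydroxylase, rose with 14.9, 14.1 and 14.8 RPKM in Ctrl and 21.4, 24.9 and 21.2 RPKM in cKO hearts (0.62, adjusted p = 0.0240). Without cKO replicate 3, 8 hypoxia and 8 glycolysis genes fell, while the counts without Ctrl replicate 3 were 0 and 0. Without cKO replicate 1, and likewise without cKO replicate 2, 1 of each list fell. The rise of Plod2 passed without cKO replicate 3 and in none of the other 5 fits.

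Of 27 genes of muscle energy isoforms and oxygen storage, 2 fell and 1 rose, with a median of −0.13. Mb, which encodes myoglobin, had 19.4, 19.4 and 18.3 RPKM in Ctrl and 3.06, 1.64 and 2.41 RPKM in cKO hearts, with a log2 fold change of −2.99 ± 0.20 (SE, adjusted p = 0.000260), and Art1 was the other. Ckb, the brain form of creatine kinase, had 33.0, 27.7 and 34.8 RPKM in Ctrl and 52.9, 64.0 and 77.0 RPKM in cKO hearts, and the lowest cKO sample was above the highest Ctrl sample (1.01, adjusted p = 0.0177). Of 33 genes of fatty acid oxidation, Eci1, an enoyl-CoA isomerase, had 27.0, 20.1 and 18.98 RPKM in Ctrl and 10.95, 8.97 and 12.4 RPKM in cKO hearts (−1.02), and Esrrg fell too. Eci1 did not pass without Ctrl replicate 3, cKO replicate 1 or cKO replicate 2, and Esrrg passed only without cKO replicate 3 among these fits. Fbxo32 (chr15:58175879-58214932), the muscle ubiquitin ligase atrogin-1, is on none of the lists. It had 9.12, 10.53 and 10.1 RPKM in replicates 1 to 3 of Ctrl and 4.09, 3.12 and 4.23 RPKM in those of cKO hearts. The groups did not overlap, and its log2 fold change of −1.36 ± 0.15 (SE, adjusted p = 0.00280) held in all 6 fits without 1 replicate.

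Several chaperone genes fell. Of 26 genes of the unfolded protein and heat shock responses, 6 fell and 0 rose, and the median was −0.40. Below 0 were 24 of the 26, against 7467 of all 10885 genes tested. Hspa8, the constitutive cytosolic HSP70, had 264, 267 and 271 RPKM in replicates 1 to 3 of Ctrl and 116, 79.8 and 176 RPKM in those of cKO hearts. The Ctrl samples lay close together, the cKO samples spread with replicate 3 highest, and the log2 fold change was −1.18 ± 0.25 (SE, adjusted p = 0.0327), which passed the test without cKO replicate 3 and in none of the other 5 fits without 1 replicate. Hspa5, the HSP70 of the endoplasmic reticulum, had 281, 306 and 298 RPKM in Ctrl and 180.5, 184 and 205 RPKM in cKO hearts (−0.64, adjusted p = 0.0386). Sdf2l1 (−0.71) and Manf (−0.69) of the endoplasmic reticulum and Hsph1 (−0.75) and Hspd1 (−0.77) of the cytosol and mitochondrion also fell. Hsp90ab1 (−0.46) and Hsp90b1 (−0.54, adjusted p = 0.0688) did not pass. With median-ratio scaling 7 members fell. The count was 7 without cKO replicate 3, 1 without either Ctrl replicate 1 or Ctrl replicate 2 and 0 without any of the other libraries.

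Of 27 genes of the integrated stress response and serine synthesis, 3 fell and 0 rose (median −0.248). The falls were in enzymes of serine and one-carbon metabolism: Phgdh with 8.55, 7.99 and 7.24 RPKM in Ctrl and 3.94, 4.29 and 5.22 RPKM in cKO hearts (−0.82), Psat1 (−0.64) and Mthfd2 (−0.69). The groups of Phgdh did not overlap. Atf4, the transcription factor of this response, had −0.23 (adjusted p = 0.244). Immediate early genes split. Of 24, Egr1 and Jun (−0.61) fell and Fosl2 (0.76) and Maff (0.87) rose, with a median of 0.17. Without Ctrl replicate 1, Ctrl replicate 3 or cKO replicate 2, 0 members of either list passed the test in limma.

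Smooth muscle, cytoskeletal and matrix genes had higher medians than all genes. Of 31 smooth muscle and cytoskeletal genes, 6 rose and 1, Myocd, fell, with a median of 0.21, and with median-ratio scaling 10 rose and 2 fell. Cnn1 (chr9:22099216-22109630), which encodes the actin-binding calponin 1, had 58.9, 49.6 and 48.5 RPKM in replicates 1 to 3 of Ctrl and 119, 142 and 122 RPKM in those of cKO hearts. The lowest cKO sample was far above the highest Ctrl sample, and the log2 fold change of 1.29 ± 0.13 (SE, adjusted p = 0.00203) held in all 6 fits without 1 replicate. Besides Lmod1 and Tpm2, the rises were in Csrp1 with 107, 86.3 and 87.8 RPKM in Ctrl and 127, 145 and 166 RPKM in cKO hearts (0.64), Flna (0.50), which encodes filamin A, and Vcl. The abundant Acta2 (0.35, adjusted p = 0.227) and Myl9 (0.21) did not pass. Without 1 library, 1 to 3 members rose, the fewest without Ctrl replicate 1, Ctrl replicate 3 or cKO replicate 2.

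Of 51 matrix genes, 4 rose and 0 fell (median 0.22), and under median-ratio scaling 15 rose (median 0.34). Their median transcript length was 5629 bases, and over all genes longer transcripts had higher fold changes, as given below. Timp3, an inhibitor of metalloproteases, had 13.9, 9.87 and 10.2 RPKM in Ctrl and 18.3, 18.4 and 19.1 RPKM in cKO hearts (0.73, adjusted p = 0.0275). Col5a1 (0.67), a fibrillar collagen, Timp2 (0.62) and Nptx2, the pentraxin of synapses given above, completed the count. The groups of Timp3 did not overlap. Only Nptx2 among them was called, and that call was lost in 4 of the 6 fits without 1 replicate. The abundant Fn1 (0.20), Vcan (0.20) and Sparc (0.45, adjusted p = 0.143) did not pass, though Sparc rose under median-ratio scaling (0.57, adjusted p = 0.0298). Beside these lists, the endothelial and endocardial markers had a median of 0.11 with 0 of 13 past the test in limma (1 at an unadjusted p under 0.05), and their sums, 223 to 285 RPKM in Ctrl and 256 to 284 RPKM in cKO hearts, overlapped. Those of cushion and fibroblast mesenchyme (median −0.35, 0 of 10 past the test in limma and 1 at an unadjusted p under 0.05) overlapped as well, at 98.2 to 178 RPKM and 114 to 147 RPKM. Of 9 epicardial markers, 1, Tbx18, fell. The part of these cells in the shift was not tested. The count of higher matrix genes was 4 without Ctrl replicate 1 or cKO replicate 3, 1 without Ctrl replicate 2 or cKO replicate 1 and 0 without Ctrl replicate 3 or cKO replicate 2.

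**Figure D3:**
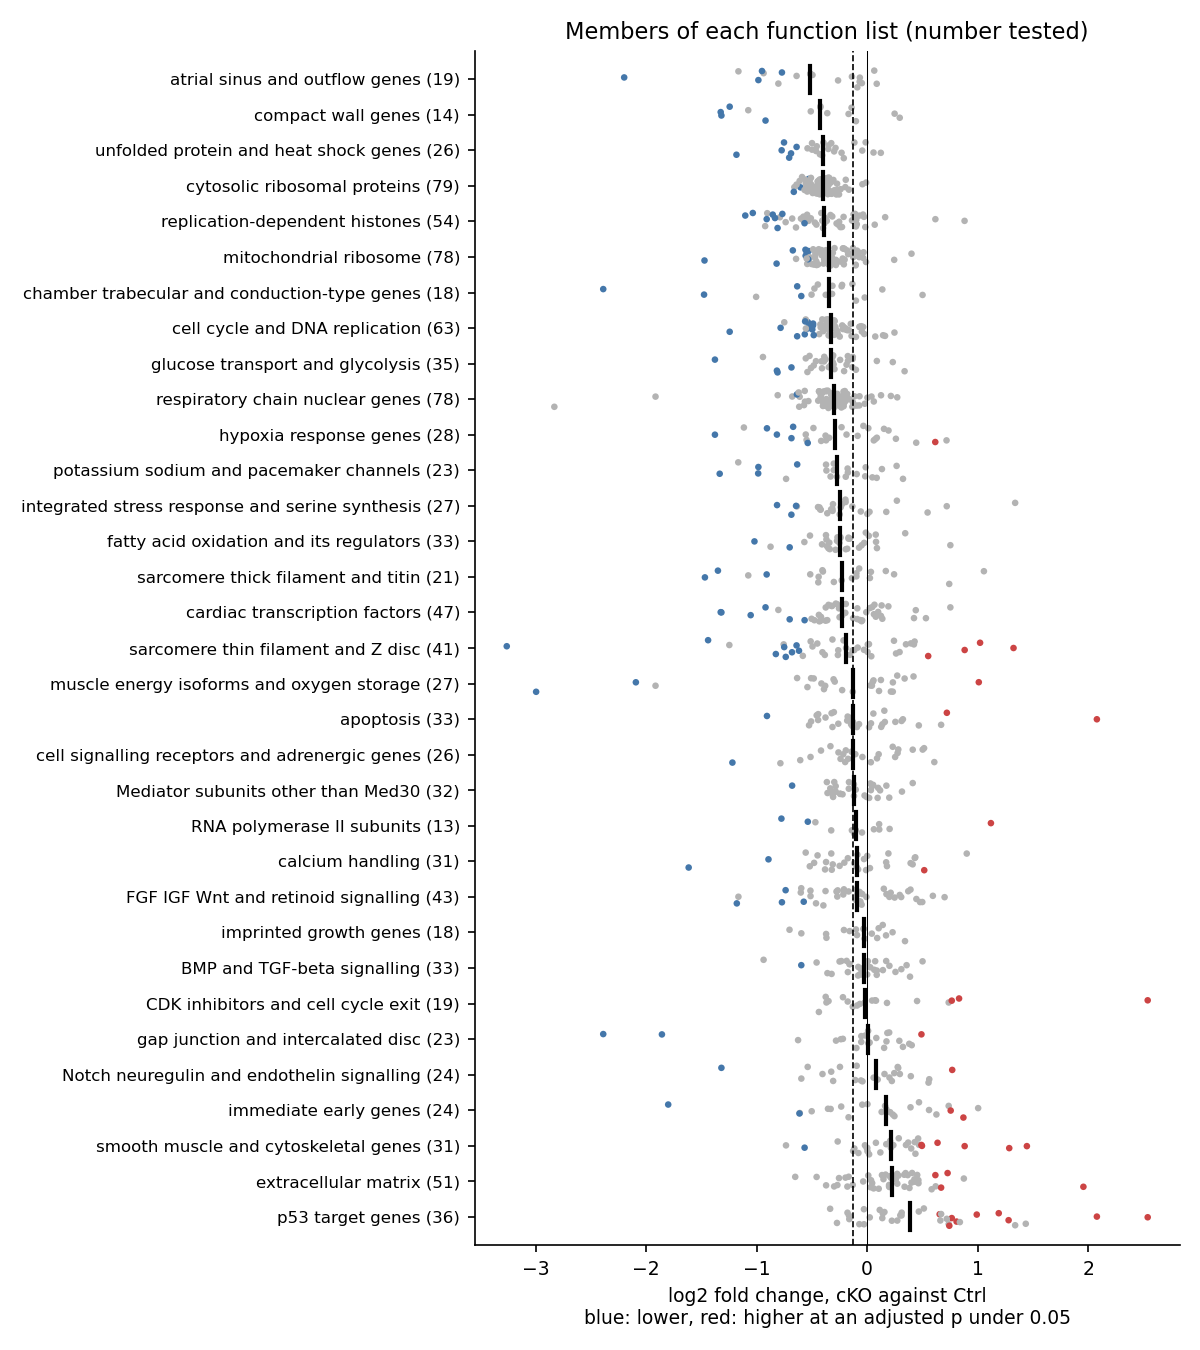
Each point is a tested member of a function list, placed by its log2 fold change of cKO against Ctrl hearts, blue where it fell and red where it rose (adjusted p below 0.05), with the list's median as a black bar and the median of all genes (−0.13) as a dashed line. Medians run from −0.51 for atrial, sinus and outflow genes to 0.39 for p53 targets, and lists such as the gap junction genes hold a few far members around a centre near 0.

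In the transcription machinery, Polr2a (chr11:69733997-69758637), which encodes the largest subunit of RNA polymerase II, was called higher. It had 21.7, 15.5 and 18.0 RPKM in replicates 1 to 3 of Ctrl and 38.2, 40.3 and 40.7 RPKM in those of cKO hearts. The cKO samples lay close together and above all Ctrl samples, and the mean was 2.16 times that of Ctrl hearts. The log2 fold change of 1.1197 ± 0.13 (SE, adjusted p = 0.00540) held in all 6 fits without 1 replicate and was 1.24 with median-ratio scaling. Of the 13 polymerase II genes tested, Polr2h and Polr2f, small subunits shared with the other polymerases, fell. Polr2h had 16.3, 13.2 and 12.8 RPKM in Ctrl and 7.78, 8.54 and 8.17 RPKM in cKO hearts (−0.78, adjusted p = 0.0204) and Polr2f had a log2 fold change of −0.54. Of 32 Mediator genes other than Med30, 1, Med16 (−0.68), fell, where 3.45% of all genes tested did, and the median was −0.12. Med16 passed without cKO replicate 3 and in none of the other 5 fits without 1 replicate, and the count was 0 without the 20 most abundant genes in the scaling. Polr2h passed in 3 of the 6 fits and Polr2f in 0.

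Ribosomal and respiratory chain genes had lower medians than all genes, and transcript length moved with the fold change over all genes. In the fifth of genes with the shortest transcripts (longest annotated isoform of up to 2022 bases) the median log2 fold change was −0.24, and in the fifth with the longest (5470 bases or more) it was −0.03. Cytosolic ribosomal proteins (median length 1059 bases) had a median of −0.40, with 79 of 79 below 0, against 7467 of all 10885 genes. Of the 79, 4 fell (among them Rps6, −0.66, Rpl13, −0.53, and Rpl15, −0.47) and 0 rose. Without 1 library the number that fell was 4 without Ctrl replicate 2, 3 without cKO replicate 3 and 0 in the other 4 fits. Mitochondrial ribosomal proteins had a median of −0.35 and 8 members that fell, Mrps28 (−0.82) the most of those other than Mrpl23. Of 78 nuclear respiratory chain genes (median −0.30), 1, Ndufs7 (−0.64), fell, while the most abundant, Atp5b, had −0.36 (adjusted p = 0.2501). The number of these that fell was 6 with median-ratio scaling and 5 without the 20 most abundant genes in it. It was 4 without Ctrl replicate 2, 3 without cKO replicate 3, 1 without Ctrl replicate 1 and 0 in the other 3 fits. The medians of the 3 lists were −0.22, −0.17 and −0.12 when the 20 most abundant genes were left out of the scaling. Without cKO replicate 3, 12 mitochondrial ribosomal genes fell, and without Ctrl replicate 1, Ctrl replicate 3 or cKO replicate 2 the count was 0. The part of transcript length in these medians, and in those of the histone and matrix lists, was not tested. Ribosomal protein genes have many processed pseudogenes, so their RPKM depend on how shared reads were counted.

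Some of the called genes were neighbours. Taking the tested genes in their order along each chromosome, 3 pairs of called genes stood next to each other, and together they made up 1 run of 4 genes within 98.9 kb of chromosome 7: Tnni2 (chr7:142441808-142444410), Lsp1 (chr7:142460809-142494867), Tnnt3 (chr7:142498836-142516009) and Mrpl23 (chr7:142532686-142540747), all on the plus strand. Tnni2 had 15.0, 7.505 and 12.7 RPKM in Ctrl and 1.03, 0.942 and 1.32 RPKM in cKO hearts. Lsp1, an actin-binding protein of leukocytes and endothelium, had 12.8, 15.3 and 11.4 RPKM in Ctrl and 6.11, 6.48 and 5.24 RPKM in cKO hearts, and Mrpl23, a mitochondrial ribosomal protein, had 3.28, 1.74 and 4.08 RPKM in Ctrl and 0.690, 1.47 and 0.881 RPKM in cKO hearts. In each of the 4 genes the groups did not overlap, and the log2 fold changes were −3.26, −1.13, −1.44 and −1.47 in the order of the chromosome. The tested genes on either side, Ctsd (−0.03, adjusted p = 0.919) and Igf2, were not called. The run was found after the values had been seen and has no test of its own. The calls of Tnni2 and Lsp1 held in all 6 fits without 1 replicate, while those of Tnnt3 and Mrpl23 were lost in 4 and 5 of them, and Mrpl23 was not called with median-ratio scaling (adjusted p = 0.0593).

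**Figure D4:**
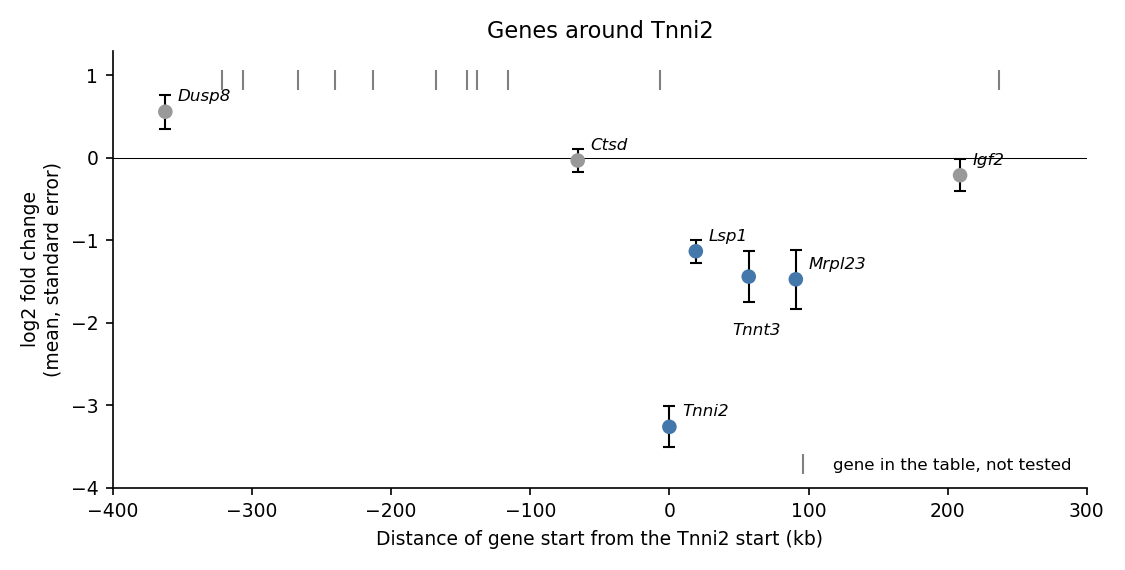
Log2 fold change of cKO against Ctrl hearts, with its standard error, for the 7 tested genes whose start lies within 400 kb of that of Tnni2, by the distance of the starts in kb, with called genes in blue and grey ticks for genes of the table that were not tested. The 4 called genes, from Tnni2 (−3.26) to Mrpl23 (−1.47), stand together, and the flanking genes Ctsd and Igf2 lie at −0.03 and −0.21.

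The called genes not yet described fall into small groups. Lower regulators of signalling included Trib2, a pseudokinase, with 14.4, 15.4 and 17.7 RPKM in Ctrl and 6.26, 6.30 and 6.78 RPKM in cKO hearts (−1.28, adjusted p = 0.00119), Sh3kbp1, an endocytic adaptor of receptor tyrosine kinases, with 13.8, 11.7 and 13.4 RPKM in Ctrl and 6.14, 5.35 and 5.89 RPKM in cKO hearts (−1.15, adjusted p = 0.00234), and Doc2g, a C2 domain protein, with 7.78, 7.42 and 9.67 RPKM in Ctrl and 3.81, 3.51 and 2.98 RPKM in cKO hearts (−1.25, adjusted p = 0.00676). In these 3 genes the groups did not overlap and the calls held in all 6 fits without 1 replicate. Map3k8 (−1.19), a MAP kinase kinase kinase, Rassf2 (−1.14), a Ras-associating protein, Ppp1r17 (−1.18), a phosphatase inhibitor, and Scube1 (−1.20), a secreted glycoprotein, lost their calls in 4 or 5 of them. Neural genes among the lower calls were Slitrk5 (−1.29), a synaptic adhesion protein, and Cend1 (−1.43), linked to the cell cycle exit of neuronal precursors. Also lower was Bcl11a (−1.39), a repressor that silences embryonic globin genes in red cells. Its call was lost in 5 of the 6 fits without 1 replicate. Lyz2, the lysozyme of myeloid cells, had 8.92, 6.43 and 7.80 RPKM in Ctrl and 3.02, 3.33 and 4.96 RPKM in cKO hearts (−1.04), while the 11 macrophage markers summed to 2.52 to 3.78 RPKM in Ctrl and 2.001 to 2.86 RPKM in cKO hearts, which overlap.

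Adprhl1, a heart-restricted relative of ADP-ribosylhydrolases, had 29.2, 17.2 and 22.5 RPKM in Ctrl and 9.48, 10.2 and 10.3 RPKM in cKO hearts, and its groups did not overlap (−1.16, adjusted p = 0.0163). Macrod1 (−1.11), a mitochondrial ADP-ribosylhydrolase, was lower as well. Together with Art1, the lower calls held 3 genes of families named for ADP-ribose enzymes, a grouping made after the names were seen. Macrod1 did not pass the test in 5 of the 6 fits without 1 replicate, nor with median-ratio scaling (−0.99, adjusted p = 0.0639 in limma). Adprhl1 did not pass in 2 of these 6 fits. The other lower calls were Svip (−1.15), an inhibitor of the degradation of proteins from the endoplasmic reticulum, Tomm20l (−1.39), Nme6 (−1.18), Tarsl2 (−1.03), a threonyl-tRNA synthetase, U2af1l4 (−1.04), a splicing factor, Tsacc (−1.43), a cochaperone of a testis kinase, Mcrip2 (−1.11), Ccdc138 (−1.16), Fndc3c1 (−1.03), Rwdd2b (−1.01) and 2310009A05Rik (−1.19). Svip and Mcrip2 did not pass in 3 of the 6 fits without 1 replicate, and the rest of these in 4 or 5. With median-ratio scaling Nme6, Ccdc138 and 2310009A05Rik did not pass (adjusted p = 0.0616, 0.0616 and 0.0639 in limma). Of the higher calls, Tinagl1, a matricellular protein of basement membranes, had 8.31, 7.94 and 9.41 RPKM in Ctrl and 14.9, 18.6 and 20.7 RPKM in cKO hearts (1.06, adjusted p = 0.0104), with all cKO samples above all Ctrl samples. Its adjusted p was under 0.05 in all 6 fits without 1 replicate, but its log2 fold change came down to 0.954 among them, short of the limit for a call. Epha2, an ephrin receptor, had 3.58, 2.59 and 3.67 RPKM in Ctrl and 6.51, 8.01 and 6.27 RPKM in cKO hearts (1.06). Sost, which encodes the Wnt inhibitor sclerostin, had 0.602, 0.729 and 0.927 RPKM in Ctrl and 1.73, 1.78 and 2.11 RPKM in cKO hearts (1.22), and its call was lost in each of the 6 fits. Tuft1 (1.21), Wscd2 (1.13) and Pcp4l1 (1.04) lost theirs in 4 or 5.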

How the data were processed

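RNA-seq of E10.5 mouse hearts was analysed from the RPKM table that the authors deposited, with 3 Ctrl and 3 cKO columns. RPKM were made by the authors as reads per kilobase, scaled to library size. The submitters' processing notes name STAR 2.5.3a, HOMER 4.11.1, cutadapt 2.6 and DESeq2 1.12.4. How strand was used in counting is not given in the sources used here. The authors' columns of mean RPKM, log2 fold changes and false discovery rates hold their own comparison and were not used. The adult table was not used here. Each library was made from 400 ng of total RNA. The deposited values hold no read counts, so depth was estimated from the steps between low values, of which 51.0% to 57.2% lay within 0.1 of a whole read (20% by chance), too few to recover counts for a count test.

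Genes with a mean above 1 RPKM were fitted with limma 3.58.1 in R 4.3.3 on log2(RPKM + 0.1) with an intensity trend and Benjamini-Hochberg adjustment over all genes tested. Fold changes are on that scale, which understates the change of low genes. Genes were called where the adjusted p was below 0.05 and the change was more than 1 on the log2 scale. All called genes were named, with the values of every sample for the 12 largest changes in each direction, beside the members of the function lists that passed the test and the 4 most abundant members of each list. The fit was checked on simulated data. With 3 samples a group, the smallest two-sided p of an exact permutation test is 0.1, so limma supplied all p-values. Replicate numbers were not used as pairs. Alternatives were other pseudocounts (1 and 0.01), no filter, a filter at 5 RPKM, 2 other scalings, no trend, a replicate block and each library left out.

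Positions are from GENCODE on GRCm38, matched by symbol for 20666 of 20775 genes (118 by an older symbol). The members, the 43 gene lists and the groupings were chosen with earlier results of these data known. A few list members are counted and are not reported here by name. Near-identical copies (histone, ribosomal protein, actin, globin and Hspa8 genes) are uncertain. Python 3.11.15 with pandas 2.3.3, numpy 2.4.6, scipy 1.17.1 and matplotlib 3.10.9 made the tables and plots.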

Additional observations from a re-analysis of the deposited data

How the results depend on the processing

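The counts of 59 lower and 26 higher genes moved with several choices. They were 36 and 12 with a pseudocount of 1, 35 and 17 without a filter on RPKM (16562 genes tested), 34 and 9 with a mean above 5 RPKM (6642 genes), and 36 and 48 when the 20 most abundant genes were left out of the scaling. A fit without an intensity trend gave 38 lower genes. A pseudocount of 0.01 gave 61 and 27. Of the 59 lower genes, 36 were still called with a pseudocount of 1, 29 without a filter and 36 with that scaling, and all 26 higher genes were still called under both scalings. With 1 library left out there were 18 to 102 lower and 9 to 36 higher genes, the fewest lower without Ctrl replicate 3, the fewest higher without cKO replicate 2 and the most of both without cKO replicate 3. The cause of these shifts was not tested.

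Same-numbered samples did not deviate together (correlations of 0.0124, 0.101 and −0.0698 for replicates 1, 2 and 3), so the numbers were not taken as pairs. A fit with the replicate block called 61 lower and 32 higher genes, sharing 53 and 25 with those reported. No named gene that passed the test with the deposited RPKM reversed its direction under any alternative run. Of 3796 values of single named genes under alternatives, 950 no longer passed the test and 44 newly did. The estimated depth of 13700000 to 20000000 reads limits what can be read from genes near 1 RPKM.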

Other observations

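Some genes had large differences that did not pass the test, with a wide spread between samples. Lars2, a mitochondrial leucyl-tRNA synthetase, had 9.77, 7.76 and 28.9 RPKM in Ctrl and 24.0, 51.6 and 32.9 RPKM in cKO hearts, and Gm20594, a predicted gene, had 8.52, 6.60 and 73.2 RPKM in Ctrl and 55.0, 147 and 81.3 RPKM in cKO hearts. In both, Ctrl replicate 3 lay with the cKO samples and apart from the other Ctrl samples, and the log2 fold changes were 1.40 and 2.43 (adjusted p = 0.0934 in limma for both). Sesn2, a stress-induced sestrin, had 1.82, 1.61 and 1.68 RPKM in Ctrl and 5.58, 8.52 and 1.83 RPKM in cKO hearts, so that cKO replicates 1 and 2 were high and cKO replicate 3 lay close to Ctrl (1.34, adjusted p = 0.107 in limma). Dusp14, a phosphatase, showed the same order of the cKO samples with 0.552, 0.435 and 0.558 RPKM in Ctrl and 1.54, 2.59 and 0.906 RPKM in cKO hearts (1.42, adjusted p = 0.0715 in limma).

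Tnnt1, the slow skeletal troponin T, had 36.4, 16.1 and 45.1 RPKM in Ctrl and 10.3, 10.96 and 17.3 RPKM in cKO hearts, with cKO replicate 3 above Ctrl replicate 2 (−1.25, adjusted p = 0.0670 in limma). Morn2 had 5.41, 3.84 and 3.47 RPKM in Ctrl and 0.773, 2.69 and 0 RPKM in cKO hearts and Cox8b, a muscle form of a cytochrome oxidase subunit, had 4.01, 1.22 and 4.12 RPKM in Ctrl and 2.05, 1.89 and 0 RPKM in cKO hearts, each listed at 0 in cKO replicate 3. The embryonic globin genes Hbb-bh1 and Hba-x had the same order of samples, with 307, 87.6 and 231 RPKM in Ctrl and 704, 124 and 393 RPKM in cKO hearts for Hbb-bh1 and 281, 71.2 and 262 RPKM in Ctrl and 762, 144 and 375 RPKM in cKO hearts for Hba-x. Replicate 1 was highest and replicate 2 lowest in each group. These genes were chosen after their values were seen.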
